A study of Mus musculus with 4 samples.

Results

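Alveolar fibroblasts were picked out of single-cell RNA sequencing of mouse lung by a fixed rule on UMIs (unique molecular identifiers, each standing for 1 captured RNA molecule). Barcodes below 500 UMIs or 200 genes, or above 10% mitochondrial UMIs, were left out. A kept barcode was called an alveolar fibroblast when Inmt, Mfap4, Itga8, Slit2, Npnt and Tcf21 summed to at least 3 UMIs and Col1a1, Col1a2, Col3a1 and Pdgfra to at least 1. Pi16, Scara5 and Serpinf1, genes of adventitial fibroblasts, could sum to at most 1. Ptprc, Pecam1, Cdh5, Ager and Cox4i2, genes of leukocytes, endothelium, alveolar type 1 cells and pericytes, had to be at 0. This gave 1105 of the 34440 kept barcodes, or 3.21%. The rule used measured levels, so the levels of its 18 genes are a description.

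The study had 4 libraries, 1 per group, from the lungs of wild-type male C57BL/6 mice aged 6 to 7 weeks. The PBS library came from mice given 100 µL of phosphate-buffered saline into the trachea, and the LPS library from mice given 200 µg of Escherichia coli lipopolysaccharide (endotoxin). The PBS+RT and LPS+RT libraries had in addition 1 Gy of X-rays to the thorax on the day after the injection, and all lungs belong to the 48-hour time point. After dissociation, cells of all 4 libraries were enriched for mononuclear cells on Ficoll-Paque of grade 1.084 and run on the 10x Genomics 3′ kit of version 3.1 with a target of 10000 cells. The number of mice behind each library is not stated in the labels, and the enrichment step limits what cell shares can say about the tissue.

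Alveolar fibroblasts lie in the walls of the alveoli, beside the epithelium and the capillaries. They make elastin, collagens and basement membrane components, store lipid and retinoids in part of the population, and supply the alveolar type 2 cell with growth factors such as Fgf10. In an inflamed lung, fibroblasts carry receptors for endotoxin, interleukins, tumor necrosis factor and interferons, and they are a source of chemokines, acute phase proteins and complement.

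With 1 library per group there was no test between groups, and no p-value was computed. UMIs were summed over the alveolar fibroblasts of a library and divided by their total, giving CPM, counts scaled to 1 common total in every library. A difference is the log2 ratio of 2 such levels, with a 95% interval that covers counting error only and leaves out the differences between mice, preparations and cells. A gene was measured in a comparison when the higher library had at least 20 CPM and 20 UMIs, and it was called higher or lower from a ratio of 2-fold. Levels of the 4 libraries are always in the order PBS, PBS+RT, LPS and LPS+RT.

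The 4 libraries held 322, 213, 199 and 371 alveolar fibroblasts with 1664756, 1852490, 1264597 and 1817080 UMIs. Median UMIs per cell were 2140, 5894, 2415 and 2106, so the PBS+RT cells were the deepest. In each library the cells spread over a wide range of depths. The cells with at least 5000 UMIs, 119, 114, 71 and 116 in number, held 80.9%, 90.3%, 81.5% and 75.9% of the UMIs. Summed levels therefore describe mainly those cells. The cells with under 5000 UMIs numbered 203, 99, 128 and 255, and values from them are given beside many results, chiefly where a direction turned.

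**Figure D1:**
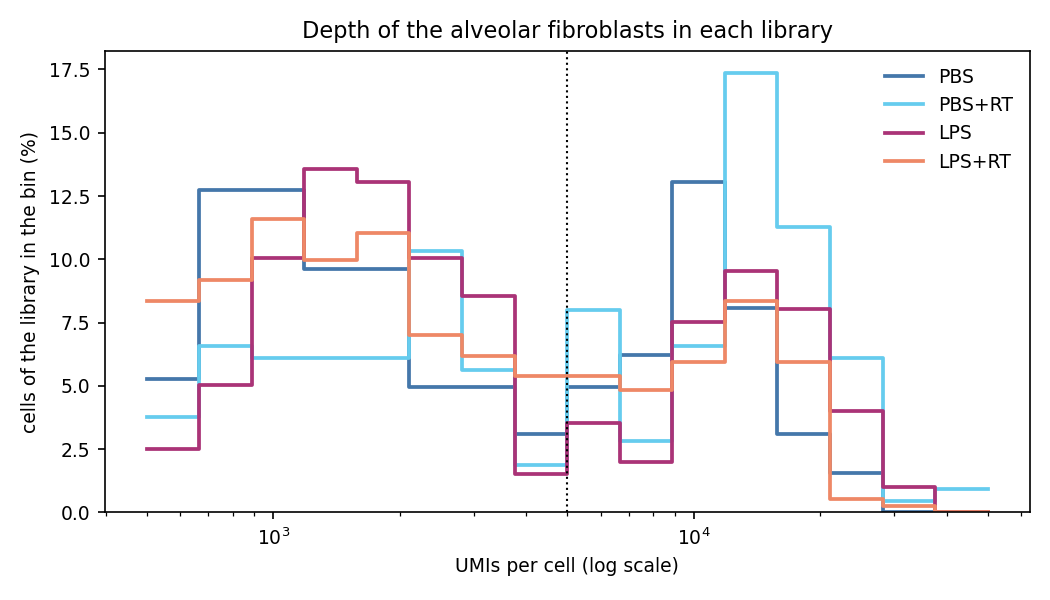
Share of each library's alveolar fibroblasts (y axis, %) by UMIs per cell (x axis, log scale) in the 4 libraries, with the dotted line at 5000 UMIs. The PBS+RT cells have the highest median, 5894 UMIs, and every library has cells on both sides of the line.

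The libraries also differed in ways that touch all of these values. Mitochondrial UMIs had medians of 3.23%, 2.25%, 3.12% and 3.90% per cell, and ribosomal protein genes took 6.50%, 4.17%, 5.54% and 7.33% of the UMIs. Ratios moved with gene length. In PBS+RT against PBS the median log2 ratio was -0.49 in the fifth of genes with the shortest gene bodies and 0.55 in the fifth with the longest, and in LPS+RT against PBS+RT it was 0.47 and -0.68. In LPS against PBS these medians were -0.27 and 0.22, and in LPS+RT against LPS 0.25 and -0.35. The part of this trend in single gene results was not tested.

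The label was checked on genes outside the rule. Of 22 other genes known from alveolar fibroblasts, 21 or all 22 were measured in every comparison. Prex2, a guanine nucleotide exchange factor, stood at 1257, 2154, 1075 and 1045 CPM, and Nebl, a nebulin-family actin-binding protein, at 941, 1519, 945 and 920.2 CPM. Cdh11, the mesenchymal cadherin, stood at 683, 686, 721 and 513 CPM, and Fgf10 at 213, 236, 130.5 and 133 CPM. In other cell sets of the PBS library, Nebl stood at 37.3 CPM in adventitial cells, 274 CPM in pericytes and smooth muscle and 39.6 CPM in endothelium, and Cdh11 at 280.0, 158 and 25.7 CPM. Prex2 did not mark alveolar fibroblasts off from them, at 278, 1241 and 549 CPM. The 10 listed markers of adventitial fibroblasts outside the rule, among them Dcn, which many fibroblasts express, summed to 2446, 1813, 1754 and 2150 CPM.

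RNA of other cells was present at levels that differed by source. Platelet and red cell markers summed to 5090 CPM and the club cell gene Scgb1a1 stood at 4860 CPM in PBS, most of it in few cells. Smooth muscle markers reached 978 CPM in PBS+RT. Of the 1812 UMIs behind that last sum, 327 were Aspn and 1263 Hhip. Both genes are also on the list of activated and contractile fibroblast genes described below. The 10 neutrophil markers summed to 58.9, 110, 549 and 156 CPM, with Ly6g at 0 in all 4 libraries, and the 15 markers of macrophages and monocytes summed to 386, 228, 323 and 743 CPM. The neutrophil gene S100a8 stood at 18.6, 29.2, 212 and 58.9 CPM in alveolar fibroblasts and at 11.6, 17, 132 and 38.5 CPM in B cells. Its level in the alveolar fibroblasts of the LPS library was 1.47% of that in the neutrophils there. Sftpc, the surfactant gene of alveolar type 2 cells, stood at 127, 56.7, 78.3 and 83.1 CPM, against 67.1, 38.7, 21 and 53.5 CPM in B cells. The part of this RNA in the results below was not tested, except where a value without the cells that carried more of it is given.

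Alveolar fibroblasts were 3.56% (95% exact binomial interval 3.19 to 3.97), 3.36% (2.93 to 3.83), 2.18% (1.89 to 2.5) and 3.74% (3.38 to 4.13) of the kept barcodes. The share in LPS was 1.64-fold lower than in PBS (counting interval 1.37 to 1.96). The denominator changed as well, since barcodes without a UMI of Ptprc, the pan-leukocyte gene, were 6076, 3966, 3215 and 5733. Of those, alveolar fibroblasts were 5.30%, 5.37%, 6.19% and 6.47%. By that denominator the LPS share was 1.17 times that of PBS, with an interval of 0.974 to 1.4, so the lower share of LPS was seen only against all barcodes.

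Of the rule's own genes, Inmt, an amine methyltransferase typical of these cells, stood at 4455, 2927, 1511 and 2800.1 CPM. Tcf21, a transcription factor of lung mesenchyme, stood at 361, 248, 139 and 331 CPM. Both were lowest in LPS. Cells chosen by the rule without Inmt gave 4462, 2921, 1493 and 2792 CPM of it, so the low value in LPS was also there when the gene did not choose the cells. Mfap4 and Col1a1 were highest in LPS, at 1531, 1284, 2142 and 2069 CPM and at 1227, 1204, 2410 and 1439 CPM. Cells just inside the threshold, with a marker sum of 3, numbered 12, 14, 11 and 11, and barcodes just outside, with a sum of 2 and every other condition met, numbered 36, 5, 19 and 15. Their median depths were 962, 4297, 1072 and 693 UMIs inside and 943, 1138, 1061 and 876 UMIs outside. The zero conditions removed 1172, 817, 364 and 911 barcodes that met the rest of the rule, 200, 128, 93 and 217 of them through a single UMI.

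After endotoxin, alveolar fibroblasts had more RNA of most measured acute phase and neutrophil chemokine genes, of most measured interferon-gamma response genes and of the complement gene Cfb. They had less RNA of single lipid, retinoid and glucocorticoid response genes. Across all 7062 genes measured in LPS against PBS, 393 (5.56%) were higher and 348 (4.93%) lower, together 10.5%, and the median log2 ratio was -0.04. Of the 10 measured genes of the list of neutrophil-attracting chemokines and acute phase genes, 9 were higher and none lower, with a median of 2.07.

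The highest ratio was that of Saa3, the serum amyloid A that mouse stromal cells and macrophages make (mm10, chr7:46711998-46715700, minus strand). It stood at 0.601, 0, 1442 and 218 CPM. The PBS value is a single UMI, so the ratio of 2401 has a counting interval of 430 to 94893. Lcn2, lipocalin 2, which binds bacterial siderophores (chr2:32384633-32388252, minus strand), stood at 6.61, 4.32, 775 and 137 CPM, which is 117-fold (65.3 to 236) higher in LPS than in PBS. Both LPS-treated libraries were far above both PBS-treated ones.

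Saa3 was found in many cells and not in a few, though its UMIs were unevenly spread. Without thinning, 3 cells held 26.1% of its LPS UMIs, and at 1500 UMIs per cell 5 cells held 42.4%. With every cell thinned to 1500 UMIs, 41.5% (33.3 to 50.1) of the alveolar fibroblasts in LPS and 15.1% (10.7 to 20.4) in LPS+RT had a Saa3 UMI, and none in the other 2 libraries. A count of 0, taken as at most 3 cells, allows shares of cells with a UMI of up to 1.52% in PBS and 1.79% in PBS+RT, and without thinning 1 PBS cell had a Saa3 UMI. The same share was 7.96% and 2.04% in the B cells of LPS and LPS+RT. Lcn2 was found in 43.0% of alveolar fibroblasts and 5.54% of B cells in LPS. Without thinning, 58.8% and 58.3% of the LPS cells had a UMI of Saa3 and of Lcn2. Median depths before thinning were 2415 UMIs in the alveolar fibroblasts and 5179 in the B cells of LPS, so the shares in B cells, read as background, were lower at equal depth. The ratios were positive in deep and in shallow cells, at 10.55 and 8.26 for Saa3 and at 7.32 and 6.39 for Lcn2.

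Cxcl1, a chemokine that attracts neutrophils through Cxcr2, stood at 401, 216, 1117 and 688 CPM, and the related Cxcl2 at 15, 10.3, 384 and 368 CPM. Cxcl2 was unevenly spread, with 60.1% of its UMIs in 3 cells of LPS and 84.3% in 3 cells of LPS+RT. Il6, the cytokine that drives the acute phase response, stood at 239, 240.2, 676 and 369 CPM, lowest in the PBS-treated libraries. Saa1 was high in few cells, with 10 cells of LPS carrying its 41.1 CPM, and since Saa1 and Saa2 are near-identical its reads are uncertain.

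Chemokines for monocytes and lymphocytes followed with 5 of 10 measured genes higher, none lower and a median of 0.80. Ccl2, the monocyte chemokine read by Ccr2, stood at 41.4, 105, 299 and 218 CPM, with 52.6% of its LPS UMIs in 3 cells. Cxcl12, the ligand of Cxcr4, stood at 97.3, 83.1, 297 and 124 CPM, a log2 difference of 1.61 (1.34 to 1.89) that lay between 1.47 and 1.88 in every alternative run. Cxcl10, a ligand of Cxcr3, stood at 73.9, 10.3, 437 and 167 CPM and was 2.56 higher, but -0.27 in cells with under 5000 UMIs. Ccl7, a monocyte chemokine, stood at 56.5, 36.2, 119 and 95.2 CPM, with 71.3% of the LPS UMIs in 3 cells, and its difference of 1.07 turned to -0.50 among cells with at most 1 UMI of S100a8 and S100a9.

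**Figure D2:**
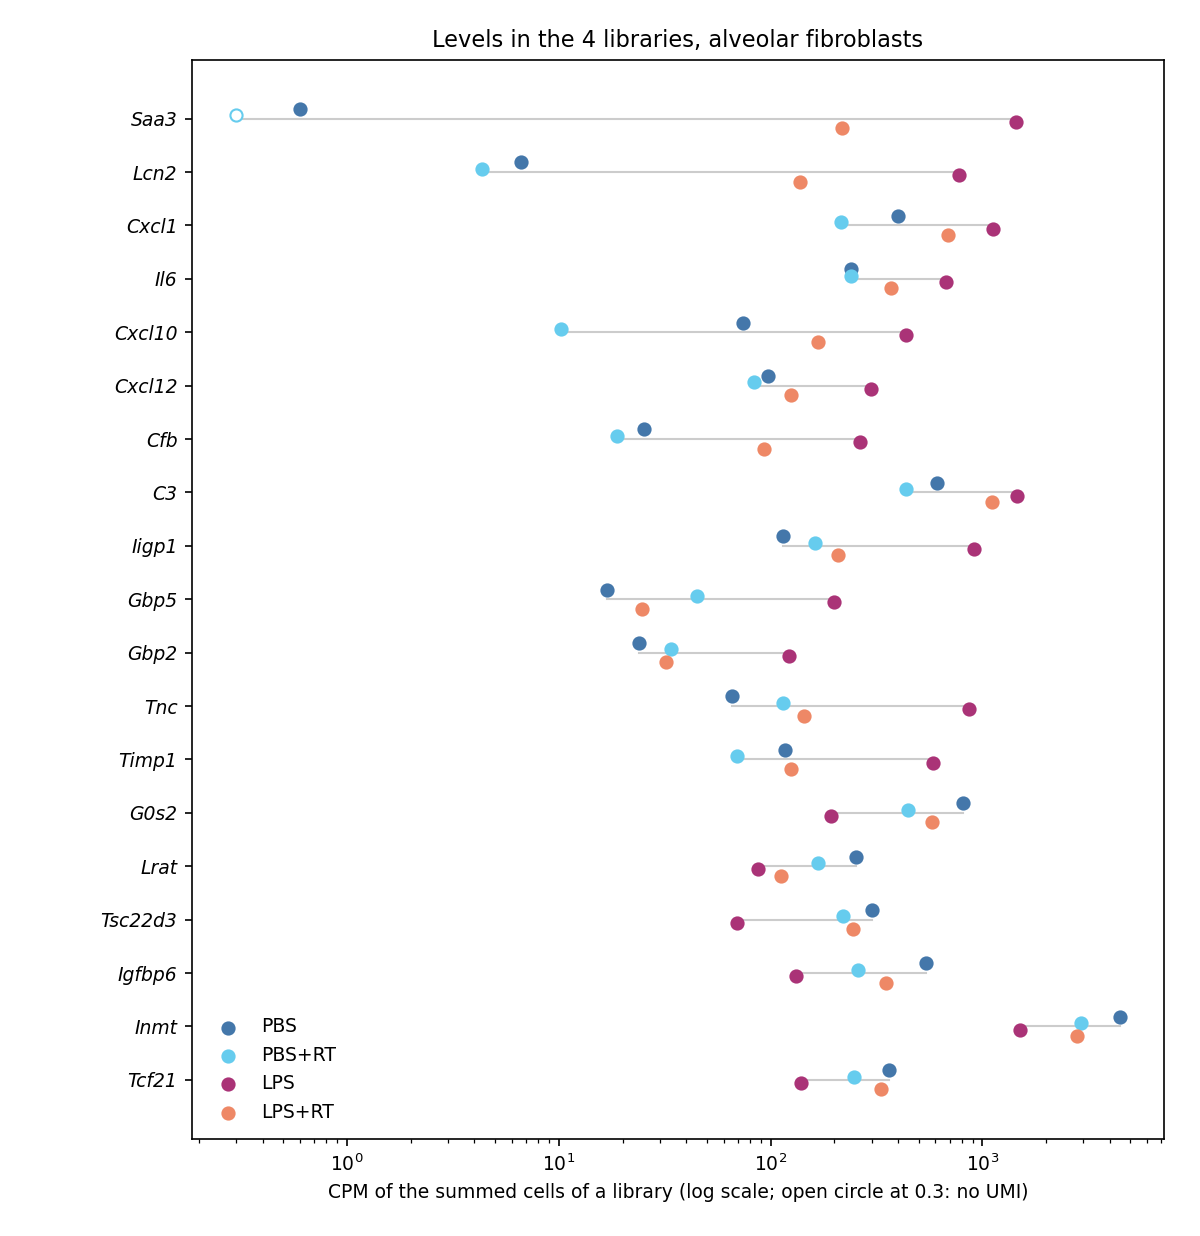
CPM (x axis, log scale) of 19 genes in the summed alveolar fibroblasts of each library, with 1 point per library and no error bars, since there was 1 library per group. Saa3, with 1442 CPM in LPS and 218 CPM in LPS+RT, has an open circle for no UMI in PBS+RT, and G0s2, Lrat, Tsc22d3, Igfbp6, Inmt and Tcf21 are lowest in LPS.

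Complement genes differed by member. Cfb, the protease of the alternative pathway (chr17:34856374-34862518, minus strand), stood at 25.2, 18.9, 264 and 93 CPM and was 10.5-fold (7.58 to 14.8) higher in LPS. C3, the central component, stood at 608, 436, 1452 and 1108 CPM and was 2.39-fold (2.21 to 2.58) higher. Of 12 measured genes of the list these 2 were higher, none was lower and the median was 0.22. C4b stood at 347, 229, 523 and 345 CPM. At 1500 UMIs per cell, Cfb was found in 29.6% of the alveolar fibroblasts of LPS and 11.2% of LPS+RT, against 3.05% in PBS and 2.38% in PBS+RT. B cells gave 1.73% and 2.33% in LPS and LPS+RT. Without thinning the 4 shares in alveolar fibroblasts were 9.01%, 10.8%, 47.2% and 22.4%.

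Genes of the interferon-gamma response had 7 of 11 measured genes higher, none lower and a median of 1.74. Many of them encode GTPases that act on the vacuoles of intracellular microbes. Iigp1 stood at 114, 161, 916 and 208 CPM, a log2 difference of 3.01 (2.78 to 3.23). Gbp5 (chr3:142493978-142522344, plus strand) stood at 16.8, 44.8, 199 and 24.8 CPM, a difference of 3.57 (3.00 to 4.19), with 49.2% of its LPS UMIs in 3 cells. Gbp2 stood at 24, 34, 122 and 31.9 CPM. For these 3 genes LPS was the highest library. Members of the Gbp family are similar in sequence, so reads can be split among them and single members are uncertain. At 1500 UMIs per cell, 32.4% of alveolar fibroblasts in LPS had an Iigp1 UMI, against 14.2%, 16.1% and 12.1% in PBS, PBS+RT and LPS+RT and 2.08% of the B cells in LPS. Without thinning the LPS share was 44.7%.

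**Figure D3:**
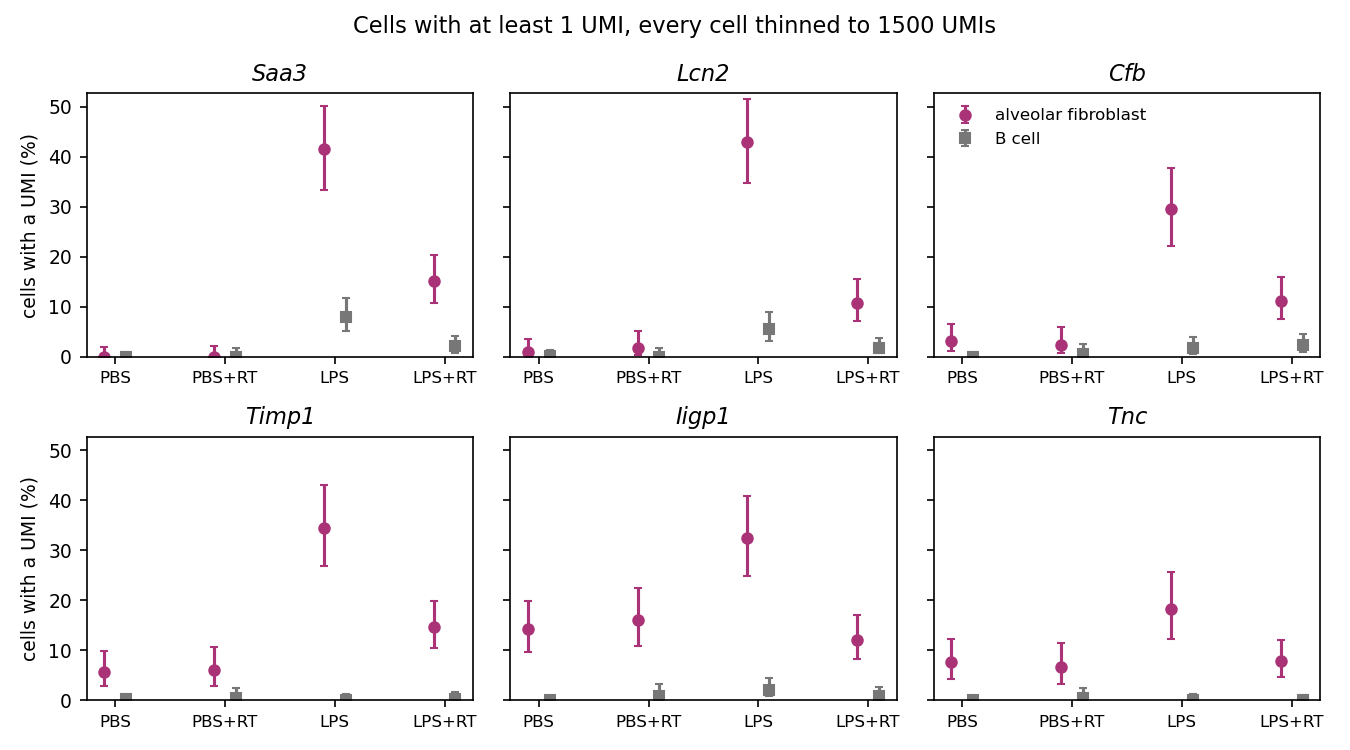
Share of cells (y axis, %) with at least 1 UMI of a gene in each library, with every cell thinned to 1500 UMIs, for alveolar fibroblasts and for B cells of the same library. Bars span 95% exact binomial intervals and cover counting error only, and the shares of alveolar fibroblasts with Saa3 (41.5%), Lcn2 (43.0%) and Cfb (29.6%) in LPS lie above those of B cells (7.96%, 5.54% and 1.73%).

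Promoters of these genes were read from RefSeq, on GRCm38.p6, over the 250 bases before the start of transcription. They are shown to describe short motifs in 2 gene groups that stood higher in LPS, and some of these motifs occur in both groups. Only the genes called higher were searched, so the counts give no contrast with the other genes of the lists. Gbp2, Gbp3 and Gbp5 belong to 1 gene family. Searched on both strands were the interferon-stimulated response element (TTTC, any 2 bases, TTTC), the gamma-activated sequence TTCNNNGAA, the C/EBP core TTGCNNAA and the NF-kB consensus. They are found in 2.977%, 7.02%, 9.564% and 7.251% of the 32851 promoters of this length that were searched, which leave out those of 1 chromosome. These shares are per promoter, while the counts below are of genes with a match at any of their start sites. Of the 7 higher interferon-gamma genes, 4 had a promoter entry (Gbp2, Gbp3, Gbp5 and Irgm2), and each of the 4 had the response element, while 2 had the gamma-activated sequence and 1 the NF-kB consensus. Of the 9 higher chemokine and acute phase genes, 8 had an entry. The NF-kB consensus was in 5 of them (Cxcl1, Cxcl2, Il1r1, Il6 and Lif), the C/EBP core in 5 (Il1r1, Il6, Lcn2, Saa1 and Saa3) and the response element in 1 (Saa3). A match is a description of the letters and not a site of binding. Capitals mark the matches. In Gbp2 (chr3:142620413-142620662, plus strand) and Gbp3 (chr3:142559794-142560043, plus strand, first start site, where the long run is 2 overlapping response elements and the short one a C/EBP core) they mark the response element. In Gbp5 (chr3:142496684-142496933, plus strand) they mark, from the 5′ end, a gamma-activated sequence, the response element, the NF-kB consensus and a second gamma-activated sequence. In Cxcl1 (chr5:90890995-90891244, plus strand) they mark 2 NF-kB matches that overlap.
Gbp2: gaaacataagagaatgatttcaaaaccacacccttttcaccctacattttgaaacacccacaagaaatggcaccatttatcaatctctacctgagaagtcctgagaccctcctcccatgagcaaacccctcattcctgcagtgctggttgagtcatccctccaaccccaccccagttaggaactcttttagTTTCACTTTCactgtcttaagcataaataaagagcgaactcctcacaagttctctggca
Gbp3: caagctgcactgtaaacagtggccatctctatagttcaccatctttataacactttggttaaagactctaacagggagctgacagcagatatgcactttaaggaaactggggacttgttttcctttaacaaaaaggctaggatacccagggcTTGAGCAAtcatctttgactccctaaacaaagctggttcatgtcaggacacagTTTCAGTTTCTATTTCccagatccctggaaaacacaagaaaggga
Gbp5: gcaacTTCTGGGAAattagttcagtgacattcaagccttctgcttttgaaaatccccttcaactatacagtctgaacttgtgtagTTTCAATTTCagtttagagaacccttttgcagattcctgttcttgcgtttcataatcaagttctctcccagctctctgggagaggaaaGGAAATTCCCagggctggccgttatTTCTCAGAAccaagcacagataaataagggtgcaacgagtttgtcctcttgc
Cxcl1: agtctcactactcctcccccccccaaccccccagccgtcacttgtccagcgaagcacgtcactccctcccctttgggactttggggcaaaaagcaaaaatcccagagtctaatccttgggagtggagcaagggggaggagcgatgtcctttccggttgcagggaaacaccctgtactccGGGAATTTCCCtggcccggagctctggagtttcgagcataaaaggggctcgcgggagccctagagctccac

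Receptors and regulators of the NF-kB pathway had 10 of 33 measured genes higher, 1 lower (Cebpd) and a median of 0.65, which was -0.18 in cells with under 5000 UMIs. Nfkb1, which encodes the p50 subunit and its precursor, stood at 660.2, 951, 2263 and 1391 CPM. Its difference was 1.78 over all cells, 1.83 in deep cells and -0.75 in shallow cells. Nfkbie, an inhibitor of the pathway, stood at 8.41, 10.8, 50.6 and 12.7 CPM, and Tnfaip2, a gene induced by tumor necrosis factor, at 140.0, 97.2, 447 and 239.9 CPM. Both were positive in deep and in shallow cells. Birc3, a ubiquitin ligase of this pathway, stood at 207, 312, 594 and 371 CPM and turned from 1.52 to -0.56 in shallow cells.

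Of 16 measured genes of MHC class I and the immunoproteasome, 4 were higher, 12 were within 2-fold and none was lower, with a median of 0.66. H2-D1 stood at 406, 264, 675 and 614 CPM, with a difference of 0.73 (0.59 to 0.88), and the immunoproteasome subunit Psmb8 at 26.4, 19.4, 53.8 and 43.5 CPM. H2-Q4 stood at 32.4, 75.6, 99.6 and 50.6 CPM, with -0.29 in shallow cells against 1.62 over all. Near-identical class I genes can share reads, so single H2-Q genes are uncertain.

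Several genes of the matrix of wounded tissue were higher in LPS. Of 36 measured collagens and other matrix proteins, 7 were higher and 1 lower, with a median of 0.53. Tnc, tenascin C, a glycoprotein that appears in injury (chr4:63959785-64047015, minus strand), stood at 65.5, 114, 867 and 143 CPM. Its UMIs came from 48 of the 199 LPS cells, 3 of which held 48.8%, and its difference of 3.73 (3.44 to 4.03) was -0.94 in shallow cells. Vcan, the proteoglycan versican, stood at 42.6, 74, 290.2 and 66.6 CPM and was positive in both depth classes. Has2, which makes hyaluronan, stood at 0.601, 3.78, 41.1 and 5.5 CPM, from 10 LPS cells. In shallow cells PBS had no Has2 UMI, and a floor of 3 UMIs set in place of 0 gave -0.14. That sign comes from the floor and is no turn in the counts. Fbln5, which helps assemble elastic fibers, was the 1 lower gene, at 73.9, 72.3, 24.5 and 43.5 CPM.

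Among matrix proteases and their inhibitors, 4 of 22 measured genes were higher and 2 (Mmp3 and Mmp11) lower, with a median of 0.04, which was -0.40 in shallow cells. Timp1, an inhibitor of metalloproteinases (chrX:20870166-20874735, plus strand), stood at 117, 69.1, 584 and 125 CPM. It was 5.01-fold (4.27 to 5.9) higher in LPS, in deep and in shallow cells (2.17 and 3.65), and was found in 34.5% of the LPS cells at 1500 UMIs against 5.58% of the PBS cells and none of the 289 thinned B cells in LPS, which by the limit of 3 cells allows up to 1.04%. Without thinning, Timp1 was found in 44.7% of the LPS cells and 14.0% of the PBS cells. The aggrecanase Adamts4 stood at 81.1, 261, 440.5 and 274 CPM and was at -0.78 in shallow cells. Adam12, with 7 LPS cells behind it, stood at 0.601, 4.86, 26.1 and 1.65 CPM. In cells thinned to 1500 UMIs PBS had no Adam12 UMI. The value of -1.11 there was against the floor of 3 UMIs and is no turn in the counts.

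Of 15 measured genes of activated and contractile fibroblasts, 7 were higher in LPS and none lower, with a median of 0.92. Ltbp2, a latent TGF-beta binding protein, stood at 26.4, 86.9, 163 and 51.7 CPM, and Sfrp1, a secreted Wnt antagonist, at 79.3, 108, 314 and 112 CPM. Fst, follistatin, which binds activins, stood at 1.2, 4.32, 100.4 and 1.1 CPM, but only 10 LPS cells carried it and 3 held 83.5%. Inhba, a chain of activin A, stood at 1.2, 3.78, 23.7 and 10.5 CPM. Its value of -0.14 in shallow cells was against the floor of 3 UMIs, since PBS had none there, and is no turn in the counts. Smooth muscle markers summed to 380, 978, 500 and 317 CPM in the 4 libraries and pericyte markers to 43.2, 52.4, 58.5 and 24.2 CPM. Aspn and Hhip are on both the smooth muscle and the activation list. Hhip alone held 450 of 632, 1263 of 1812, 367 of 632 and 403 of 576 UMIs of the smooth muscle sum. That sum is thus not independent of this list, and the part of smooth muscle cells and pericytes in the list was not tested.

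Growth factors and their binding proteins moved in both directions, with 3 of 16 measured genes higher and 2 lower. Ereg and Areg, ligands of the epidermal growth factor receptor, stood at 2.4, 0, 60.1 and 2.2 CPM and 1.2, 0, 20.6 and 0.55 CPM, from 10 and 4 LPS cells. Igfbp6, a binding protein for insulin-like growth factors that is also on the list of adventitial markers, stood at 544, 259, 132 and 349 CPM, a difference of -2.04 (-2.29 to -1.80). Igfbp3 stood at 254, 222, 102 and 183 CPM. Gm16685, a non-coding RNA among the 8 genes with the highest ratios, stood at 9.61, 37.2, 387 and 111 CPM, from 31 LPS cells.

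The lipid and retinoid genes of lipofibroblasts had 4 of 13 measured genes lower, none higher and a median of -0.51. G0s2, an inhibitor of triglyceride lipase, stood at 812, 446, 193 and 579 CPM, a difference of -2.07 (-2.28 to -1.87). Lrat, which esterifies retinol for storage, stood at 252, 168, 87 and 112 CPM, and the fatty acid receptor Cd36 at 54.1, 49.7, 23.7 and 47.3 CPM. Apoe stood at 2448, 1318, 1301 and 1923 CPM and did not reach 2-fold. LPS was the lowest library for each of these 4 genes.

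Most genes known from alveolar fibroblasts outside the rule stood below their PBS level but within 2-fold. Of 21 measured, 1 was lower (Gdf10), none higher, and 2 were above 0, with a median of -0.36 against -0.04 over all genes. Gdf10, a secreted TGF-beta family member, stood at 42, 41.6, 19 and 30.3 CPM and was at 0.03 in shallow cells. Fgf10, the growth factor for type 2 cells, had a difference of -0.71 (-0.98 to -0.44), and Enpep, an aminopeptidase, of -0.87 (-1.18 to -0.56) at 182, 172, 99.6 and 149.7 CPM.

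Of 15 measured glucocorticoid response genes, 3 were lower and none higher, with a median of -0.78. Tsc22d3 (GILZ), a classic target of the glucocorticoid receptor, stood at 300.3, 219, 69.6 and 244 CPM, a difference of -2.11 (-2.45 to -1.78). Cebpd stood at 2196, 1678, 1074 and 2059 CPM and Klf9 at 505, 525, 269 and 419 CPM. Other genes with the lowest ratios were Colq, the collagen tail of acetylcholinesterase, at 76.9, 78.8, 11.9 and 50.6 CPM, the cyclic AMP phosphodiesterase Pde4c at 81.1, 111, 14.2 and 55 CPM, the glycosyltransferase Galnt15 at 56.5, 65.9, 9.49 and 35.8 CPM, Gm3336 at 53.5, 76.1, 5.54 and 31.4 CPM and 1810010H24Rik at 181, 76.7, 40.3 and 89.7 CPM. In each of these 5 the lowest library was LPS. Scgb3a2, a secretoglobin of airway club cells, stood at 277, 2.16, 3.95 and 25.9 CPM, and 3 cells held 92.4% of its PBS UMIs.

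**Figure D4:**
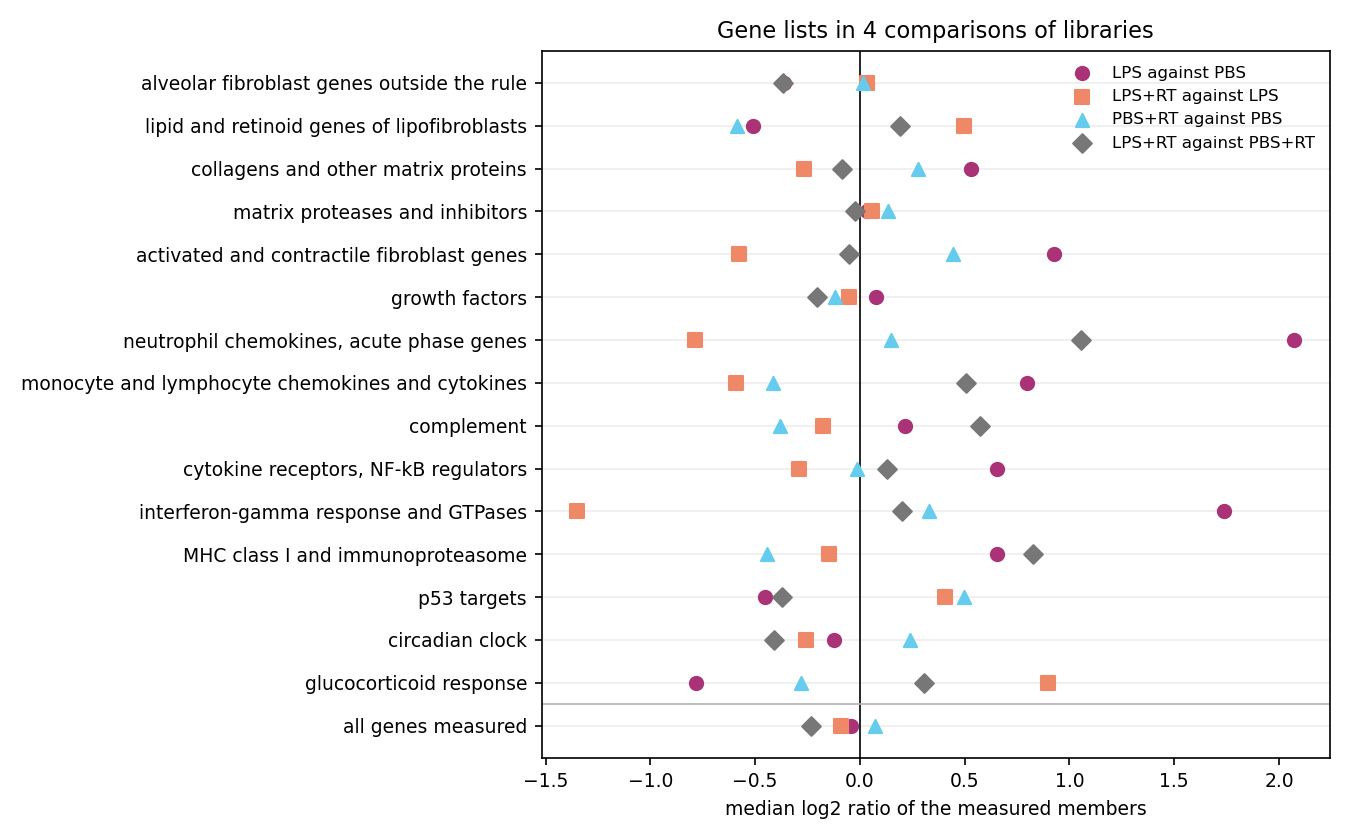
Median log2 ratio (x axis) of the measured genes of 15 lists and of all genes measured, in 4 comparisons of libraries; no error is shown. In LPS against PBS the lists of neutrophil chemokines and acute phase genes (2.07) and of interferon-gamma response genes (1.74) stand farthest to the right and that of glucocorticoid response genes (-0.78) farthest to the left; NF-kB regulators, at 0.65, were at -0.18 in cells with under 5000 UMIs.

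Depth divided these genes. In the plot of the 2 depth classes, Saa3, Lcn2, Cfb, Timp1, Iigp1, Gbp5 and C3 were higher in LPS on both axes, and G0s2, Tsc22d3 and Colq lower on both. Tnc and Cxcl10 were higher in the deep cells only. The shallow cells gave 2595 measured genes against 7183 in the deep ones, and they held the smaller part of the UMIs.

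**Figure D5:**
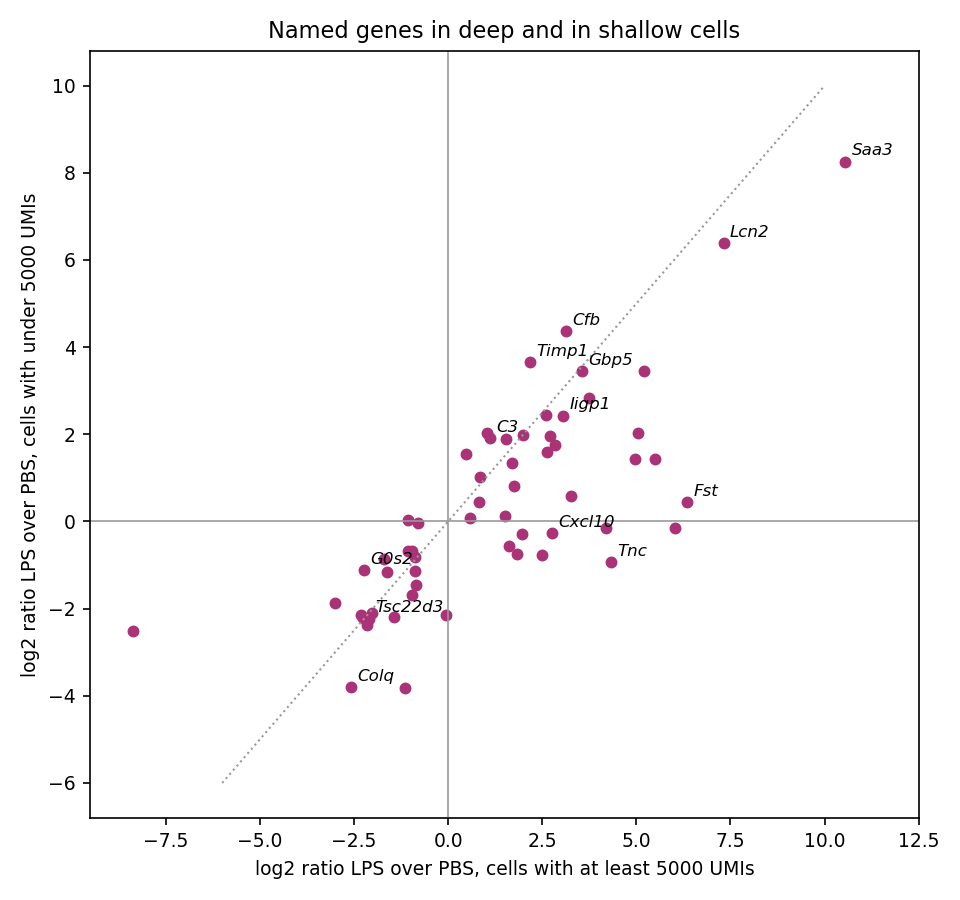
Log2 ratio of LPS over PBS for the genes named by rule in that comparison, in cells with at least 5000 UMIs (x axis) and in cells with under 5000 UMIs (y axis), with 1 point per gene and the dotted line at equality. Saa3 and Lcn2 lie at the upper right, at 10.55 and 8.26 and at 7.32 and 6.39, and Tnc lies below the horizontal line, at 4.34 and -0.94.

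The same differences in other cells of these libraries were set beside those of the alveolar fibroblasts, without a test between cell types. The LPS library held 26 cells of the adventitial set, 66 of the pericyte and smooth muscle set and 1223 endothelial cells. The log2 ratio of Saa3 was 6.98 in adventitial cells, 7.56 in pericytes and smooth muscle and 7.36 in endothelium, and that of Lcn2 was 9.63, 4.93 and 4.12. Of these, Lcn2 in adventitial cells and Saa3 in pericytes and smooth muscle rest on 2 UMIs in PBS, with ratios of 793 (218 to 6571) and 188 (51.5 to 1564). For Tsc22d3 the ratios were -1.52, -1.32 and -0.81. Saa3, Lcn2 and Tsc22d3 thus had the same direction in all 4 cell sets. Tnc was higher in LPS in the others as well, with a log2 ratio of 2.69 in pericytes and smooth muscle and 3.59 in endothelium, and 13 UMIs against none in adventitial cells. Its level in LPS was 862 CPM in pericytes and smooth muscle, 53.3 CPM in endothelium and 867 CPM in alveolar fibroblasts.

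Irradiation after endotoxin was read from LPS+RT against LPS. Saa3, Lcn2, Cfb and most measured interferon-gamma genes stood lower in the irradiated library, and Tsc22d3, G0s2 and Cdkn1a stood higher, while most members of the other lists were within 2-fold. Of 6781 genes measured, 160 (2.36%) were higher and 348 (5.13%) lower, together 7.49%, with a median of -0.09. This comparison uses the same LPS library as LPS against PBS, so any feature of that library enters both with opposite signs, and the differences below are no independent return toward PBS.

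Of the 10 measured chemokine and acute phase genes, 4 were lower, none higher and none above 0, with a median of -0.79. Saa3 was 6.62-fold (5.93 to 7.4) lower and Lcn2 5.66-fold (4.92 to 6.53) lower in LPS+RT, in deep and in shallow cells. Il6 had a difference of -0.87 (-1.02 to -0.73). Of 9 measured chemokines for monocytes and lymphocytes, 3 were lower, namely Cxcl10 (-1.39), Cxcl12 (-1.26) and the macrophage growth factor Csf1 (-1.23, at 55.9, 35.6, 112 and 47.9 CPM). In complement only Cfb passed 2-fold, at -1.51 (-1.78 to -1.23), and C3 had -0.39 (-0.48 to -0.30). Saa3, Lcn2, Cfb and C3 thus remained above both PBS-treated libraries in LPS+RT.

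Interferon-gamma genes had 7 of 12 measured genes lower and a median of -1.35. Gbp5 had -3.01 (-3.50 to -2.55), Iigp1 -2.14 (-2.31 to -1.97) and Gbp2 -1.93 (-2.39 to -1.49), and these were negative in every alternative run. The 1 higher gene was Cd274, which encodes PD-L1, at 0.601, 1.62, 14.2 and 29.7 CPM, with 79.6% of its LPS+RT UMIs in 3 cells. NF-kB regulators had 4 of 33 lower, with Nfkbie at -2.0 (-2.75 to -1.29) and the IkB-family protein Bcl3 at -1.52 (-2.03 to -1.03). Il17ra, the receptor for interleukin 17A, was also among them, at -1.29, with 0.69 in shallow cells. MHC class I had 1 of 16 lower, with a median of -0.15.

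Single matrix genes and 7 activation genes were lower as well. Of 37 measured matrix genes, 5 were lower, 32 within 2-fold and none higher, with Tnc at -2.60 (-2.80 to -2.40), Vcan at -2.12 (-2.43 to -1.82) and Col12a1, a fibril-associated collagen, at -1.81 (-2.24 to -1.39). Of 15 activation genes, 7 were lower and none higher, with a median of -0.58. Ltbp2 had -1.65 (-2.02 to -1.30), Sfrp1 -1.49 (-1.74 to -1.24) and the transcription factor Runx1 -1.50 (-1.77 to -1.23) at 93.7, 129, 271 and 95.8 CPM. Timp1 had -2.22. Fst had 2 UMIs in LPS+RT against 127 in LPS. Slc15a2, a peptide transporter, stood at 68.5, 56.1, 136 and 10.5 CPM, from 19 LPS cells. Ptgs2os, a non-coding RNA beside Ptgs2, had no UMI in LPS+RT and 68 in LPS, from 9 cells, which is at least 32.6-fold lower against a floor of 3 UMIs.

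The glucocorticoid list had 4 of 15 measured genes higher, none lower, 14 above 0 and a median of 0.90. Tsc22d3 had 1.81 (1.48 to 2.16). Zbtb16, a transcription factor induced by glucocorticoids, stood at 171, 381, 221 and 474 CPM and the kinase Sgk1 at 254, 223, 143 and 287 CPM, and Errfi1, a feedback inhibitor of the epidermal growth factor receptor, at 466, 547, 336 and 665 CPM. Zbtb16 was higher in both irradiated libraries than in their unirradiated partners. Lipid genes had 3 of 12 higher and none lower, with G0s2 at 1.59 (1.38 to 1.79), Angptl4, an inhibitor of lipoprotein lipase, at 1.08 (0.70 to 1.48) and Fabp5, a fatty acid-binding protein, at 18, 5.4, 7.91 and 23.7 CPM. Genes of alveolar fibroblasts outside the rule had none past 2-fold, with a median of 0.03.

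Targets of p53, the factor that answers DNA damage, had 4 of 14 measured genes higher, none lower and a median of 0.40. Cdkn1a, the inhibitor of cyclin-dependent kinases that p53 induces, stood at 197, 329.8, 177 and 406 CPM, so each irradiated library was above its partner. The difference was 1.20 (0.98 to 1.42) in LPS-treated lungs and 0.74 (0.55 to 0.94) in PBS-treated lungs. At 1500 UMIs per cell, Cdkn1a was found in 15.7%, 26.8%, 10.6% and 28.9% of the alveolar fibroblasts and in 2.5%, 2.7%, 1.04% and 6.71% of the B cells. Without thinning the shares were 22.0%, 52.6%, 21.6% and 37.5%. Trp53inp1 stood at 54.1, 76.7, 20.6 and 63.8 CPM, and Bax, a mediator of cell death, at 55.3, 63.7, 51.4 and 91.9 CPM. Mdm2, the p53 inhibitor and target, stood at 30, 57.8, 54.6 and 63.8 CPM, with 0.23 (-0.22 to 0.68) in LPS-treated lungs and -0.23 there in deep cells. Gdf15, a secreted stress protein, came from 5 LPS+RT cells and stood at 7.81, 7.02, 2.37 and 23.1 CPM. It turned negative in 3 alternatives, but LPS held 3 Gdf15 UMIs in all, as many as the floor set for 0.

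Other genes with the highest ratios in LPS+RT against LPS were Cox6b2, a subunit of cytochrome c oxidase, at 107, 99.9, 33.2 and 137 CPM, and the transcripts B530045E10Rik at 96.1, 219, 41.9 and 154 CPM and G530011O06Rik at 24.6, 41, 12.7 and 54.5 CPM. The last was at -0.90 in shallow cells. Cox6b2 was lowest in LPS.

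Irradiation alone was read from PBS+RT against PBS, 2 libraries that the comparison of LPS+RT with LPS does not use. Of the lists described, the circadian clock had the most genes past 2-fold, 5 higher and 1 lower. Most p53 targets were above 0 but under 2-fold. Of 7124 genes measured, 390 (5.47%) were higher and 202 (2.84%) lower, together 8.31%, with a median of 0.07, so the share of p53 targets past 2-fold, 1 of 15, lay near that of all genes.

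Of these 15 p53 targets, 14 were above 0 and the median was 0.50. Eda2r, a death receptor family member, stood at 0.601, 40.5, 11.1 and 13.8 CPM, with 1 UMI in PBS, so its ratio of 67.4 has an interval of 11.7 to 2697. Mdm2 had 0.94 (0.45 to 1.46) and was positive in deep and in shallow cells. Fas, a death receptor, stood at 114, 204, 225 and 138 CPM, with 0.84 (0.58 to 1.10) over all cells and -0.38 in shallow cells.

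The circadian clock list had 5 of 14 measured genes higher and 1, Npas2, lower, with a median of 0.24. Nr1d1, the nuclear receptor Rev-erb alpha, stood at 9.01, 51.8, 5.54 and 44 CPM, and Dbp, a clock output factor, at 4.2, 28.6, 7.12 and 20.4 CPM. Both were higher in each irradiated library than in its partner, at 2.52 (1.73 to 3.42) and 2.99 (1.88 to 4.35) for Nr1d1 and at 2.77 (1.62 to 4.15) and 1.52 (0.44 to 2.75) for Dbp. The list as a whole had 2 of 13 measured genes higher, none lower, 5 above 0 and a median of -0.26 in LPS+RT against LPS. Nr1d2 stood at 22.8, 76.1, 34 and 45.7 CPM and Hlf at 31.8, 90.7, 29.3 and 38 CPM. Hour of collection is a known driver of these genes, is not given in the labels and cannot be told apart from irradiation.

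Lipid genes had 1 of 13 higher, 1 lower and a median of -0.59, which was 0.21 in shallow cells. Angptl4 stood at 65.5, 192, 58.5 and 124 CPM, with 1.55 over all and -0.62 in shallow cells. Lpl, lipoprotein lipase, was the lower one, at 220.5, 105, 198 and 193 CPM, and Apoe and G0s2 had -0.89 (-0.97 to -0.82) and -0.86 (-0.99 to -0.74). Of the glucocorticoid list 2 were higher (Fkbp5 and Zbtb16) and 3 lower. Mt2, a metallothionein, stood at 321, 72.3, 359 and 644 CPM, a difference of -2.15 that was 2.82 in shallow cells.

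Activation genes had 3 of 13 higher and 1 lower, with a median of 0.45, which was -0.56 in shallow cells. In the same comparison all 5 measured smooth muscle markers (Aspn, Synpo2, Hhip, Des and Myh11) were higher, with a median of 1.33, and so was the 1 measured pericyte marker, Trpc6, at 2.81. Aspn and Hhip are counted in both lists, and the part of smooth muscle cells and pericytes in the activation list was not tested. Aspn, asporin, stood at 43.2, 177, 150.2 and 51.2 CPM and Hhip, a Hedgehog inhibitor, at 270.3, 682, 290.2 and 222 CPM. Both are also known from the myofibroblasts of alveolar ducts, and in shallow cells they were at -0.50 and -3.35. At 1500 UMIs Hhip was found in 8.63%, 13.7%, 13.4% and 9.48% of the cells and in 1.14%, 0.450%, 0% and 0.292% of B cells, and without thinning in 16.8%, 26.3%, 22.1% and 14.8% of the cells. Ltbp2 had 1.72, with 78.9% of its PBS+RT UMIs in 3 cells. Tagln, a smooth muscle protein, was the lower gene, at 160.4, 76.1, 142 and 110.1 CPM.

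The genes with the highest ratios were Kctd16, a subunit of GABA-B receptors, at 15.6, 132, 53.8 and 17.6 CPM, the splicing regulator Rbfox1 at 10.2, 61.5, 49 and 12.7 CPM, the transcription factor Nfe2l3 at 36.6, 150.1, 38 and 79.8 CPM, Gm34455 at 39.6, 153, 109.9 and 107 CPM and Csmd1, a large membrane protein with complement control domains, at 116, 403, 202 and 96.3 CPM. Kctd16 came from 19 PBS+RT cells and was at -0.76 in shallow cells. Csmd1 came from 18 cells and was at -2.19 once cells with a UMI of Hhip, Aspn, Lgr6 or Fgf18 were left out. Nfe2l3, with 61 cells, lay between 1.59 and 2.20 in every alternative run.
The genes with the lowest ratios, beside Scgb3a2 and Mt2, were Cxcl10, Olfr1033 and Adm, the vasodilator adrenomedullin. Cxcl10 had a difference of -2.85 (-3.63 to -2.14). It came from 3 cells of PBS+RT and 20 cells of PBS, 3 of which held 48.8% of the PBS UMIs. Olfr1033 stood at 250.5, 72.9, 402 and 189 CPM, with -1.78 over all and 1.05 in shallow cells. Adm stood at 200.0, 58.3, 81.4 and 83.1 CPM.

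Endotoxin in irradiated lungs was read from LPS+RT against PBS+RT. Of 6965 genes measured, 204 (2.93%) were higher and 614 (8.82%) lower, together 11.7%, and the median was -0.24. Median-of-ratios scaling changed this split to 523 higher and 286 lower. It changed the LPS+RT against LPS split to 206 higher and 275 lower, while in the other 2 comparisons the share of higher calls moved by under 10 percentage points.

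Single acute phase, chemokine and complement genes were higher here too. Of 9 measured chemokine and acute phase genes, 5 were higher and 1, Saa1, lower, with a median of 1.06. Saa3 had 396 UMIs against none, at least 135-fold higher against a floor of 3 UMIs, and Lcn2 had 4.99 (3.99 to 6.22). Saa1 had 50 UMIs in PBS+RT, all in 1 cell, and was at 1.12 in cells thinned to 1500 UMIs. LPS+RT held 3 Saa1 UMIs before thinning, as many as the floor, so the sign of that thinned value cannot be read. Cxcl1 had 1.67 (1.51 to 1.84). Complement had 3 of 12 higher and none lower, with Cfb at 2.30 (1.77 to 2.87), C2 at 1.52 (0.96 to 2.10) and C3 at 1.35 (1.23 to 1.47).

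MHC class I had 4 of 14 genes higher, none lower and a median of 0.83. H2-D1 had 1.22 (1.06 to 1.37) and B2m, the shared light chain, 0.99 (0.88 to 1.10) at 769, 537, 1037 and 1064 CPM. Interferon-gamma genes had 1 of 9 higher, Cd274 (-0.28 in shallow cells), and a median of 0.20, with Iigp1 at 0.37 (0.14 to 0.59) over all and -0.24 in shallow cells. Cxcl10 had 4.02 (3.35 to 4.78), with -1.87 in shallow cells, and Mt2 3.15, with -0.25. The 19 Cxcl10 UMIs of PBS+RT came from 3 cells, and 66.3% of those in LPS+RT were in 3 cells. Its value in shallow cells thus rests on few UMIs or on the floor of 3 UMIs. Ifi27l2a, an interferon-induced gene, stood at 258, 169, 289 and 584 CPM.

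The lowest ratios belonged to Kctd16, Hgf, Csmd1, Plagl1 and Slc16a10, all high in PBS+RT. Hgf, hepatocyte growth factor, which acts on epithelium and endothelium, stood at 122, 266, 129.7 and 56.7 CPM, with 51.3% of its PBS+RT UMIs in 3 cells. Plagl1, a growth-regulating transcription factor, stood at 19.2, 75.6, 22.1 and 14.3 CPM, with 67.1% in 3 cells. Slc16a10, a transporter of aromatic amino acids, stood at 145, 282, 120.2 and 75.9 CPM, and in shallow cells it was at 0.72 and Kctd16 at 1.04.

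At 1500 UMIs per cell, 197, 168, 142 and 232 cells remained and the variance of a typical gene was close to its mean, with median ratios of 1.18 in PBS and 1.22 in PBS+RT. The genes with the highest ratios of variance to mean were mainly of 2 kinds, those found in most cells, such as Gm42418, Malat1 and Mgp, which lead in LPS and LPS+RT, and those concentrated in few. Saa3 in LPS lay between, found in 41.5% of the cells with 42.4% of its UMIs in 5 of them. In PBS the first were Scgb1a1, of airway club cells, and hemoglobin genes, with 84.4% of the Scgb1a1 UMIs and 93.7% of the Hbb-bs UMIs in 5 cells. Platelet and red cell markers summed to 69.6 to 221 CPM in the other 3 libraries. Hhip in PBS+RT had 54.2% of its UMIs in 5 cells.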

How the data were processed

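Dissociated lung cells of 4 mouse groups were sequenced as 1 single-cell library each. The authors deposited whole-number UMI counts per gene and barcode, and the file headers name Cell Ranger 7.0.1 as the program that wrote them. The submitters' processing notes name Cell Ranger 7, R 4.2.2, Seurat 4.3.0 and mm10. Whether intron reads were counted is not given in the sources used here, and this bears on long genes. Of 32285 genes in the table, 32158 matched GENCODE M21.

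Barcodes were kept and alveolar fibroblasts chosen as the report states. No doublet caller was run. The zero conditions remove cells with genes of other types, and an alternative left out the 5% of cells with most UMIs. Barcode sequences were not used here, so barcodes shared between libraries were not counted. Counts were summed per library and divided by their total. Ratio intervals are 95% exact conditional binomial and share intervals 95% Clopper-Pearson, and both cover counting error only. PCR and mouse-to-mouse variation are outside them. A gene without a UMI was compared with a floor of 3 UMIs, and the upper limit of a share at 0 is 3 cells of the total. The ratio and interval code was tested on simulated data.

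Genes were named by a rule: the 8 highest and 8 lowest ratios after adding 10 CPM in LPS against PBS, and 5 and 5 in each other comparison. The higher library had to hold 50 CPM and 30 UMIs or more, with a level at least 1/5 of that in every reference class of at least 50 barcodes. Genes of the rule, of other cells' lists, of mitochondria, ribosomes, hemoglobin and immunoglobulins were left out of that ranking. To these were added 2 to 4 members of each described list at 20 CPM or more, Cdkn1a and Mdm2 always, and S100a8 and Sftpc as measures of other cells' RNA. Further genes are named where a count of 5 or fewer called them or where the text says how many cells carried them, and those were chosen after their values were seen. The 26 pathway lists hold 626 genes, 619 of them in the table, and 15 lists are described, beside 13 lists of other cells' markers. Some genes of these lists are counted but not reported here by name. The members and lists were chosen with earlier results of these data known. The analysis used Python 3.11.15 with numpy 2.4.6, pandas 2.3.3, scipy 1.17.1 and matplotlib 3.10.9. Alternatives were another scaling, other filters on low values, equal weights for cells, thinning and other rules for choosing cells.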

Additional observations from a re-analysis of the deposited data

Results flagged for a closer look

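For 13 named genes, the irradiated library was past its partner by 2-fold or more in one direction in PBS-treated lungs and in the other direction in LPS-treated lungs. Each rests on 1 library per group and the difference was not tested. The values are log2 ratios of PBS+RT over PBS, of LPS+RT over LPS, and the second minus the first.

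Gbp5, an interferon-induced GTPase, had 1.41 and -3.01, a difference of -4.42. Il17ra, the receptor for interleukin 17A, had 1.19 and -1.29, a difference of -2.48. Saa1, an acute phase gene, had 3.49 and -4.64, a difference of -8.13, with its PBS+RT UMIs in 1 cell. Among genes of activated fibroblasts, Aspn had 2.03 and -1.55, a difference of -3.58, and Ltbp2 had 1.72 and -1.65, a difference of -3.37. In PBS+RT, 3 cells held 63.9% of the Aspn UMIs and 3 cells 78.9% of the Ltbp2 UMIs. The growth factor gene Hgf had 1.13 and -1.19, a difference of -2.32. Kctd16 had 3.08 and -1.61, a difference of -4.69, and Csmd1 had 1.8 and -1.07, a difference of -2.87. Rbfox1, carried by 17 PBS+RT and 8 LPS cells, had 2.59 and -1.95, a difference of -4.54. The non-coding RNA Gm16685 had 1.95 and -1.80, a difference of -3.76, with 71.0% of its PBS+RT UMIs in 3 cells. These 10 genes were higher in PBS+RT than in PBS.

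The other 3 were lower in PBS+RT than in PBS. Igfbp6 had -1.07 and 1.4, a difference of 2.47, and 1810010H24Rik had -1.24 and 1.15, a difference of 2.4. Scgb3a2, a gene of airway club cells carried by few barcodes, had -7.00 and 2.71, a difference of 9.71. In cells with under 5000 UMIs, Aspn (-0.50) and Kctd16 (-0.76) were negative in PBS+RT against PBS, and Il17ra (0.69) was positive in LPS+RT against LPS.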

How the results depend on the processing

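No paired analysis was possible because each group had 1 library, and leaving out a replicate was not possible for the same reason. Of 13 alternatives for the gene results, 9 were planned and 4 (cells with at least 5000 UMIs, cells with under 5000, cells without a UMI of Hhip, Aspn, Lgr6 or Fgf18, and cells with at most 5 UMIs of each list of other cells' markers) were chosen after seeing the data. Among gene results past 2-fold, 23 changed sign in cells with under 5000 UMIs and none in those with at least 5000 or under median-of-ratios scaling. Results under 2-fold also changed sign, such as Mdm2 in LPS+RT against LPS (0.23 over all, -0.23 in cells with at least 5000 UMIs). Except where a filter on low values or fewer cells changed the number of genes measured, the cause was not tested.

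Shares of barcodes, 3.56%, 3.36%, 2.18% and 3.74% over all, were 5.30%, 5.37%, 6.19% and 6.47% of barcodes without Ptprc. With every barcode thinned to 2000 UMIs the shares, in the same order, were 4.89%, 4.94%, 2.33% and 4.66%.

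For LPS against PBS, the genes past 2-fold (393 higher, 348 lower) were 884 and 1004 with a filter of 5 CPM and 5 UMIs and 218 and 130 with 50 CPM and 30 UMIs. They were 431 and 698 with equal weights for cells, 142 and 238 at 1500 UMIs and 117 and 306 in cells with under 5000 UMIs. The larger side turned in these 3 and with the filter of 5 CPM. It also turned with an adventitial sum of 0 (404 and 413) and with at most 1 UMI of S100a8 and S100a9 (337 and 408). Without cells with duct myofibroblast genes it turned as well (451 and 507). For PBS+RT against PBS (390 and 202), the counts were 924 and 635 with the lower filter, 198 and 71 with the higher one and 728 and 438 with equal weights. There were 633 higher without the 5% of cells with most UMIs, 123 higher and 221 lower under 5000 UMIs, where the larger side turned, and 685 higher and 342 lower without cells with duct myofibroblast genes. For LPS+RT against LPS (160 and 348), they were 615 and 900, 62 and 174, and 423 and 562 in the same order. There were 594 lower with few UMIs of other cells, and the larger side turned at 1500 UMIs (157 and 136) and under 5000 UMIs (252 and 114). For LPS+RT against PBS+RT (204 and 614), they were 603 and 1352, 95 and 293, and 383 and 1232, and 523 and 286 under median-of-ratios scaling. There were 345 higher without the 5% with most UMIs, 226 higher and 191 lower under 5000 UMIs, where it also turned, and 992 lower with few UMIs of other cells.

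In cells with under 5000 UMIs these turned, of genes past 2-fold and list medians of at least 0.5 in size. In LPS against PBS they were the list of NF-kB regulators (-0.18), Adamts4 (-0.78), Birc3 (-0.56), Cxcl10 (-0.27), Gdf10 (0.027), H2-Q4 (-0.29), Has2 (-0.14), Inhba (-0.14), Nfkb1 (-0.75) and Tnc (-0.94). Of these, Has2 and Inhba had no UMI in the shallow PBS cells, and their sign comes from the floor of 3 UMIs set for 0. In PBS+RT against PBS they were the lipid list (0.21), Angptl4 (-0.62), Aspn (-0.50), Hhip (-3.35), Kctd16 (-0.76), Mt2 (2.82) and Olfr1033 (1.05). Smaller values that turned there include Fas (-0.38) and the lists of activation (-0.56) and matrix genes (-0.12). In LPS+RT against LPS they were the Wnt and Hedgehog list (0.16), G530011O06Rik (-0.90), Gdf15 (-1.48) and Il17ra (0.69). In LPS+RT against PBS+RT they were Cd274 (-0.28), Cxcl10 (-1.87), Kctd16 (1.04), Mt2 (-0.25) and Slc16a10 (0.72). Values in shallow cells can rest on few UMIs or on the floor of 3 UMIs set for 0, such as those of Cxcl10 here and of Kctd16 in PBS+RT against PBS.

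Thinning to 1500 UMIs turned Adam12 (-1.11) in LPS against PBS, Gdf15 (-0.29) in LPS+RT against LPS and Saa1 (1.12) in LPS+RT against PBS+RT. Adam12 turned only against the floor of 3 UMIs set for 0 in PBS. Gdf15 in LPS and Saa1 in LPS+RT held 3 UMIs each before thinning, as many as the floor, so their signs cannot be read. A marker sum of at least 5 turned Gdf15 (-0.50), cells with at most 1 UMI of S100a8 and S100a9 turned Ccl7 (-0.50) in LPS against PBS, and leaving out duct myofibroblast genes turned Csmd1 (-2.19) in PBS+RT against PBS.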
